A study of Mus musculus with 15 samples.

Results

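The 9 genes described here encode the heat shock proteins Hspa2, Hspa1l, Hspa4l, Hspa8, Hsp90aa1, Hspa1a and Hspa1b and the heat shock transcription factors Hsf1 and Hsf2. They were taken by symbol, through their Entrez gene IDs, from the 23510 gene IDs of a table of mouse testis RNA levels, and all 9 were found. RNA was sequenced from 15 testis libraries of ICR mice, an outbred stock, in 5 groups of 3 libraries. MNC mice received a lentivirus with the vector control hairpin, and M1, M3 and M5 mice received lentivirus that carried short hairpin RNAs against the muscarinic acetylcholine receptors M1, M3 or M5, which are encoded by Chrm1, Chrm3 and Chrm5. Per the study's methods, 3 hairpins per receptor were mixed, the injections into the testes were done at 5 weeks of age and the testes were taken 10 days later. The labels call Con a control and say nothing of a virus. The study's methods describe virus for the other groups only and do not give the age, handling or collection time of Con. Differences from Con can therefore not be assigned to the virus. Levels are given as FPKM, the fragments mapped to a gene divided by its length and by the number mapped in the library, so that levels of different genes can be set side by side. The libraries are of whole testis, in which fewer cells of a type and less RNA per cell cannot be told apart, and the virus was not restricted to a cell type.

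Heat shock proteins are chaperones, which hold unfolded proteins, help them fold and pass on those that cannot be repaired. HSP70 proteins work in cycles of ATP use that are started by HSP40 (DNAJ) partners and ended by nucleotide exchange factors, HSP110 relatives such as Hspa4l being among the latter, and HSP90 proteins act later on kinases, steroid receptors and other clients. In stressed cells Hsf1 binds heat shock elements, repeats of GAA in alternating orientation, and switches on the inducible genes. The testis is unusual in that germ cells make HSP70 forms of their own without any stress, Hspa2 from meiosis onwards and Hspa1l in spermatids, and that Hsf2 is active in spermatocytes and round spermatids.

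Facts of the whole series that touch these genes are as follows. The transcripts of the targeted receptors were close to 0 and did not check the labels, with Chrm5 at 0.32 ± 0.087 FPKM in M5 (SD, n = 3) and 0.363 ± 0.115 in MNC (exact permutation test, two-sided, p = 0.5, where 0.1 is the smallest p that 3 against 3 libraries allow). For Chrm1 the MNC level of 0.107 ± 0.006 FPKM compared with 0.113 ± 0.025 in M1 (n = 3, two-sided exact permutation p = 0.9), and for Chrm3 the MNC level of 0.037 ± 0.023 compared with 0.077 ± 0.035 in M3 (n = 3, two-sided exact permutation p = 0.3). A library that stood apart from its group was M3 replicate 3. On a scale that sets the mean of MNC to 0 and that of M5 to 1 over 819 genes called between them, the members left out, it lay at 0.83, while the other M3, M1 and Con libraries lay between 0.11 and 0.22. M5 replicate 3 carried more RNA of somatic cells than the other M5 libraries, with a sum of 7 Leydig cell markers of 3168 FPKM against 1521 and 1769, of 8 Sertoli cell markers of 922.3 against 520.2 and 578.8, and of 6 macrophage markers of 140.6 against 63.3 and 74.9. Insl3 and Clu, with means of 1254.27 and 400.06 FPKM over the 15 libraries, dominated the Leydig and Sertoli cell sums. The labels name testis as the tissue, while their extraction text speaks of sperm, and defining markers of germ cells before, during and after meiosis as well as of Sertoli and Leydig cells were present: all 10 spermatocyte, 10 round spermatid, 10 elongating spermatid, 8 Sertoli cell and 7 Leydig cell markers reached 1 FPKM in some library, and 7 of the 8 spermatogonial markers did. How deeply each library was sequenced is unknown. Relative depths estimated from 10 genes with low values ranged from 0.94 to 1.015. Only genes whose values all lay within 0.15 of whole steps were kept for this estimate. That filter drops genes that would show unlike depths, so the range cannot tell how alike the depths were.

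The 9 genes spanned more than 3 orders of magnitude in level. Hsp90aa1, the stress-responsive form of HSP90, was the most abundant with a mean of 730.9 FPKM over the 15 libraries, which ranked 46 of the 23510 genes. Hspa2 followed with 453.1 FPKM (rank 100), Hspa4l with 292.2 (rank 227) and Hspa1l with 135.8 (rank 707). Hspa8, the constitutive HSP70 of all cells, stood at 84.7 FPKM (rank 1287), below each of the 3 relatives enriched in germ cells. The factors were far lower, at 23.6 FPKM for Hsf2 (rank 3949) and 15.3 for Hsf1 (rank 5288). The inducible genes Hspa1b, at 0.73 FPKM, and Hspa1a, at 0.423, were below the mean of 1 FPKM required for a test, with 34.4% and 29.1% of genes lower. Together the 9 genes held between 0.315% and 0.398% of the summed FPKM of a library.

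The ranges over the 15 libraries did not overlap between Hsp90aa1, Hspa2 and Hspa4l. Hspa4l and Hspa1l overlapped by a single library, MNC replicate 1, in which Hspa1l reached 267.47 FPKM. Hspa1l and Hspa8 were not separated: Hspa8 was the higher of the pair in Con replicate 2 and in M5 replicate 3. Hsf2 was above Hsf1 in every library, although their ranges overlapped. Hspa1b was above Hspa1a in every library but MNC replicates 1 and 3. The spread within groups also differed among the genes. Hspa2 and Hspa4l were steady, with within-group SDs of 0.078 and 0.082 on the log2 scale, smaller than those of most tested genes, whose median was 0.134. Hspa1l, with 0.38, was more variable between libraries of a group than 92.9% of the tested genes, and Hspa8, with 0.262, than 85.6%.

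**Figure D1:**
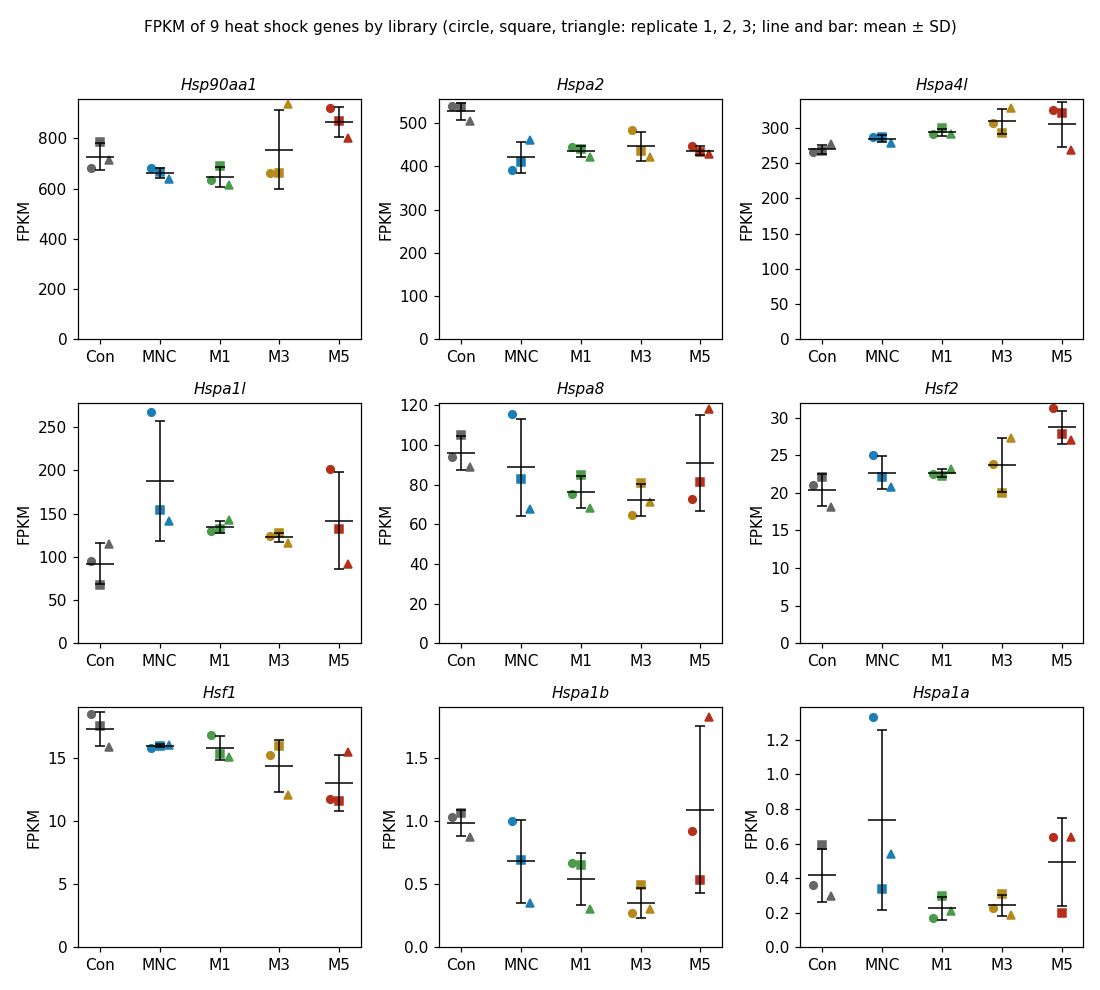
FPKM of each of the 9 genes (vertical axes, each starting at 0) in the 15 libraries by group, with circles, squares and triangles for replicates 1, 2 and 3 and lines and bars for mean ± SD. Hspa2 is highest in Con, where the lowest library is at 504.81 FPKM, Hsp90aa1 is highest in M5 and in M3 replicate 3, and Hspa1a and Hspa1b do not exceed 1.82 FPKM.

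Of the 7 members tested, few passed the test in any comparison. Calls were made with limma on log2(FPKM + 1) over 14514 genes at a Benjamini-Hochberg adjusted p under 0.05. M5 against MNC asked what changed with the M5 hairpins, and 1 of 7 members was called, Hsp90aa1, against 5.65% of all genes tested. No member was called in M1 against MNC, where limma called 0 genes of any kind (0%) and 862 genes, none of them a member, had an unadjusted p under 0.05. None was called in M3 against MNC either (0.00689% of all genes), where 1 member, Hspa1l, had an unadjusted p under 0.05. With the knockdowns set against each other, 2 members were called in M5 against M1 (6.75% of all genes), Hsp90aa1 and Hsf2, and 0 in M5 against M3 (0.0138% of all genes), where no member had an unadjusted p under 0.05. MNC against Con compared the vector control with the control, and 1 member was called, Hspa2 (20.4% of all genes). The mean of the 4 injected groups against Con gave 3 members, Hspa2, Hspa1l and Hsf2 (34.2% of all genes). A test of any difference among the 5 groups gave 2 members, Hspa2 and Hsf2 (33.6% of all genes). These comparisons share libraries, M5 against MNC and MNC against Con the MNC group and M5 against MNC and M5 against M1 the M5 group, so they are not independent of each other.

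Counts of members whose groups did not overlap are set beside the share of all genes. As a share of the 7 members, they were above that of all genes in M5, M1 and M3 against MNC and in MNC against Con, by little for so few genes. In the other comparisons they were below it. The counts were 3 in M5 against MNC (Hsp90aa1, Hsf1 and Hsf2, 32.1% of all genes), 1 in M1 against MNC (Hspa4l, 12% of all genes), 2 in M3 against MNC (Hspa1l and Hspa4l, 17.1%), 2 in M5 against M1 (Hsp90aa1 and Hsf2, 33.7%) and 0 in M5 against M3 (22.9%). In MNC against Con 4 members did not overlap (Hspa2, Hspa1l, Hspa4l and Hsp90aa1, 46.5% of all genes), and in the injected groups against Con 1 (Hspa2, 17.8%). The median log2 difference of the 7 members was 0.05 in M5 against MNC, where that of all genes was 0.03, and -0.11 in MNC against Con, where that of all genes was -0.10. In the injected groups against Con the median of all genes was also -0.10, and differences against Con should be read relative to this shift.

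**Figure D2:**
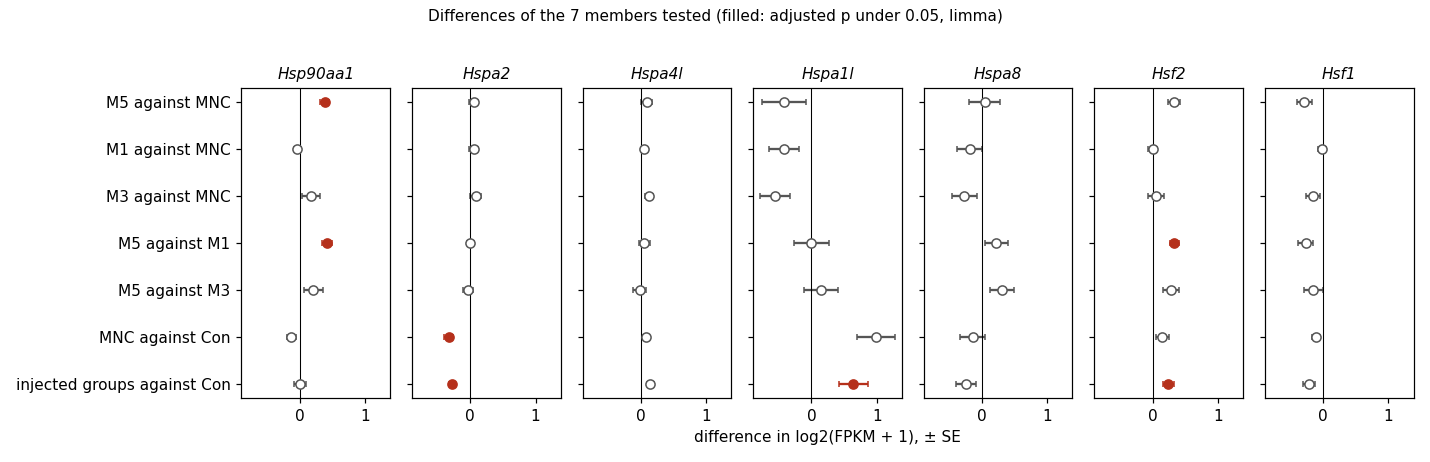
Differences in log2(FPKM + 1) with their SE (horizontal axis) of the 7 members tested, in 7 comparisons (rows). Filled points passed an adjusted p of 0.05 in limma: Hsp90aa1 in M5 against MNC and M5 against M1, Hspa2 in MNC against Con and the injected groups against Con, Hspa1l in the latter, and Hsf2 in M5 against M1 and the injected groups against Con.

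Hspa2, an HSP70 that spermatocytes need to complete meiosis and that later helps build the sperm surface, lies on chromosome 12 (chr12:76403812-76406938, GRCm38.p6, the assembly also known as mm10, which the submitters' processing notes name). It was at 540.46, 536.27 and 504.81 FPKM in the Con libraries and at 392.55, 410.12 and 460.67 in MNC. The M1 libraries were at 445.02, 439.74 and 420.76 FPKM, the M3 libraries at 482.85, 434.68 and 420.5, and the M5 libraries at 447.52, 432.4 and 428.66. Every Con library was above every injected library, and the 4 injected groups overlapped each other. The level fell by 0.33 on the log2 scale in MNC against Con (SE 0.0704, limma, adjusted p = 0.0307) and by 0.28 over all injected groups (SE 0.0524, limma, adjusted p = 0.00202). The difference over all injected groups kept its call without any single library, with adjusted p between 0.00105 and 0.0175, and lost it when each library was centred on its median, where it was -0.17 (limma, adjusted p = 0.112), and when the trend with GC content was removed, where it was -0.18 (limma, adjusted p = 0.052). In MNC against Con the call was lost without MNC replicate 1 (adjusted p = 0.0517, limma) or replicate 2 (0.0832), or without Con replicate 1 (0.112), replicate 2 (0.0925) or replicate 3 (0.053), while the difference stayed between -0.39 and -0.28. In those fits 0.0551% to 17.2% of all genes were called, against 20.4% with all libraries. In the test of any difference among the 5 groups the call of Hspa2 (limma, adjusted p = 0.0157) was lost in 4 of 24 alternatives. These were median centring (adjusted p = 0.223, limma), the GC trend removed (0.126) and the fits without Con replicate 1 (0.0775) or 2 (0.0664). Against MNC, Hspa2 differed by 0.05 in M5 (SE 0.073), 0.05 in M1 (SE 0.0655) and 0.08 in M3 (SE 0.0851), none of which was called. Summed levels of 10 spermatocyte markers were 2024 to 2155 FPKM in Con and 1992 to 2246 in MNC, and overlapped. Ybx2, at a mean of 1266.39 FPKM against at most 194.26 for any other of the 10, dominated that sum. The sums of 10 round spermatid markers were 1712 to 1755 FPKM in Con, 1994 to 2129 in MNC and 1706 to 1905 in M5, and those of 10 elongating spermatid markers were 12986 to 24117 FPKM in Con and 25620 to 35402 over the injected libraries, without overlap. The part of a changed mix of germ cell stages in the level of Hspa2 was not tested.

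Hspa1l, the HSP70 of haploid germ cells, lies on chromosome 17 (chr17:34972703-34979228) and moved the other way. It was at 95.06, 67.47 and 114.38 FPKM in Con, at 267.47, 154.47 and 141.75 in MNC, at 129.67, 131.67 and 142.32 in M1, at 123.63, 127.2 and 116.53 in M3, and at 201.96, 132.7 and 91.25 in M5. All injected libraries but M5 replicate 3 were above the Con libraries, and MNC replicate 1 and M5 replicate 1 stood out as high. Over the injected groups Hspa1l rose by 0.64 log2 units (SE 0.219, limma, adjusted p = 0.0387). This call was lost in 8 of 15 fits without 1 library. Without Con replicate 2 the difference was 0.44 (limma, adjusted p = 0.228), and without Con replicate 1 it was 0.68 (adjusted p = 0.0949, limma). Without M5 replicate 2, M3 replicate 1 or 2, or any of the 3 M1 libraries the adjusted p (limma) was between 0.0509 and 0.0559. Of all genes 34.2% were called with all libraries, and 20.1% and 19% without Con replicates 1 and 2. With those other libraries left out in turn the share was 30.5% to 34.1%. With quantile normalization the difference of Hspa1l was 0.57 (limma, adjusted p = 0.0695). In MNC against Con the difference was 0.99 (SE 0.29, limma, adjusted p = 0.0565), the largest among the members and not called. In M3 against MNC it was -0.56 (SE 0.23, limma, adjusted p = 0.518). The elongating spermatid markers named above were also higher in all injected libraries than in Con, and their part in the level of Hspa1l was not tested.

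Set against each other in the same library, Hspa1l made up 0.176 ± 0.0504 of the level of Hspa2 in Con (SD, n = 3) and 0.455 ± 0.199 in MNC. The ratio was 0.31 ± 0.0251 in M1, 0.275 ± 0.0184 in M3 and 0.324 ± 0.12 in M5. All injected libraries but M5 replicate 3, at 0.213, had a higher ratio than the highest Con library, at 0.227. Over the 15 libraries the levels of the 2 genes correlated with a Pearson r of -0.67, given as a description, since libraries share their groups.

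**Figure D3:**
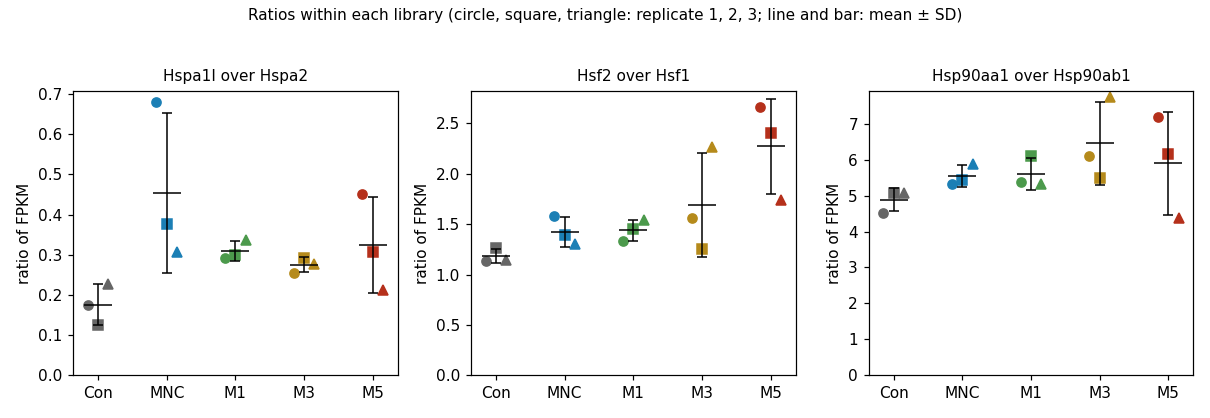
Ratios of FPKM within each library (vertical axes from 0) for Hspa1l over Hspa2, Hsf2 over Hsf1 and Hsp90aa1 over Hsp90ab1, by group, with markers for replicates 1 to 3 and lines and bars for mean ± SD. The first is lowest in Con at 0.176 and the second highest in M5 at 2.27, while M3 replicate 3 reaches 2.26, apart from its group.

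Hspa4l, an HSP110 relative that exchanges the nucleotide of HSP70 proteins and is rich in spermatids, lies on chromosome 3 (chr3:40744500-40796103). It was at 265.09, 266.43 and 277.06 FPKM in Con, at 287.29, 286.66 and 278.39 in MNC, at 290.45, 299.5 and 291.19 in M1, at 307.3, 292.1 and 327.63 in M3, and at 324.76, 321.18 and 267.83 in M5. The Con libraries were below all injected libraries except M5 replicate 3. The difference of the injected groups from Con was 0.14 (SE 0.0537, limma, adjusted p = 0.0581) and was not called. Without M5 replicate 3 it was 0.16 and called (limma, adjusted p = 0.00398), as it was without M3 replicate 2, at 0.15 (limma, adjusted p = 0.0468). With the GC trend removed it was 0.20 and called (limma, adjusted p = 0.0331), with median centring 0.25 and with quantile normalization 0.008 (limma, adjusted p = 0.0559 and 0.917). M1 and M3 did not overlap with MNC, at differences of 0.05 and 0.12 that were not called (limma, adjusted p = 0.846 and 0.534).

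Hspa8, the constitutive HSP70 that also uncoats clathrin vesicles, lies on chromosome 9 (chr9:40801276-40805202) and was called in no comparison. It was at 94, 105.09 and 88.66 FPKM in Con, at 115.56, 82.82 and 67.66 in MNC, at 75.49, 84.6 and 68.37 in M1, at 64.54, 80.65 and 71.17 in M3, and at 72.83, 81.21 and 118.21 in M5. The highest values were those of M5 replicate 3 and MNC replicate 1, the libraries with the highest sums of 6 macrophage markers, at 140.6 and 113.7 FPKM against 38.7 to 74.9 in all other libraries. The next highest Hspa8 values were those of Con, where the macrophage sums were only 42.1 to 51.4 FPKM. M5 replicate 3 was also the highest of all libraries in the Leydig and Sertoli cell sums. The part of somatic cells in the Hspa8 values was not tested. Over the 7 comparisons of groups its differences lay between -0.27 and 0.30 with SEs of 0.152 to 0.242, wider than those of Hspa2.

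The inducible pair Hspa1a and Hspa1b lies on the same chromosome as Hspa1l, and Hspa1a is its neighbour, read in the opposite direction (chr17:34969359-34972156 for Hspa1a and chr17:34956429-34959238 for Hspa1b). Their coding sequences, taken as the longest reading frame of GENCODE M21 transcripts, had 99.4% identical positions, and 58.8% of the windows of 50 bases in the Hspa1a transcript occurred in that of Hspa1b, so reads of one can be counted for the other and each level is uncertain. Hspa1a shared 82.8% of coding positions with Hspa1l and 7.95% of its windows, and shared no window with Hspa2 or Hspa8. The promoters, 250 bases before to 50 bases after a start annotated in RefSeq, are shown for the heat shock element, GAANNTTC on either strand, in capitals. The windows of the pair held it, and those of the germ cell genes did not. The table held promoters of 6 members, those of Hspa1a (chr17:34972107-34972406, minus strand), Hspa1b (chr17:34959189-34959488, minus strand), Hspa1l (chr17:34972453-34972752, plus strand), Hspa2 (chr12:76404120-76404419, plus strand), Hspa4l and Hsf2, and not of Hspa8, Hsp90aa1 and Hsf1. The windows of Hspa2, Hspa4l (chr3:40745363-40745662) and Hsf2 (chr10:57486135-57486434) lie inside the spans given for these genes. They belong to starts downstream of the first base of the span, and the bases before that first base were not searched.
Hspa1a: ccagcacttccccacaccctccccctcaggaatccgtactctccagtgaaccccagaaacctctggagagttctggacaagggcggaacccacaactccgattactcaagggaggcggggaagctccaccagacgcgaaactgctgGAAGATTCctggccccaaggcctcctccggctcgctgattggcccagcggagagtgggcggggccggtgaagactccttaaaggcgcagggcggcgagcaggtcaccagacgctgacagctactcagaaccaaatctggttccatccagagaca
Hspa1b: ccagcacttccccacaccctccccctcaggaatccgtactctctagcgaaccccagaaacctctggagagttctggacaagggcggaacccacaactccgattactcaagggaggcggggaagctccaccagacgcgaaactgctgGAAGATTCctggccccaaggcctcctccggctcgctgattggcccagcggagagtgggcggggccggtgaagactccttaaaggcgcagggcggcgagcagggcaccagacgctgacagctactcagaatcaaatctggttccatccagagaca
Hspa1l: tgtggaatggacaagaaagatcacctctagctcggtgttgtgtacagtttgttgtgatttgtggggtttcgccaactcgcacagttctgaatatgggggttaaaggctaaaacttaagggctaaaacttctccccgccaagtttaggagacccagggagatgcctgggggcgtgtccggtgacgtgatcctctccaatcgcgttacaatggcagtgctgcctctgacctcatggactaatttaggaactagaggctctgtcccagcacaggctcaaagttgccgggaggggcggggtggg
Hspa2: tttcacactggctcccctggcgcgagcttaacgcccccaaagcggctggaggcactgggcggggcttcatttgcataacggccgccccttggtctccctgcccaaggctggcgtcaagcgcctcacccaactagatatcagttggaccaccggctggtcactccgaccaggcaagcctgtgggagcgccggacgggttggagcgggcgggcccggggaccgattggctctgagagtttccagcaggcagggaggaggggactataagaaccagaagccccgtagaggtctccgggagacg

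Hspa1a and Hspa1b had the same base at 296 of 300 promoter positions, and each held 1 match to the heat shock element, at position -104 relative to the start. The letters GAANNTTC were found in 7.86% of 32851 promoters of this length, and in neither of the promoters of Hspa1l and Hspa2, nor in those of Hspa4l and Hsf2. The opposite order, TTCNNGAA, was found in none of the 6 and in 8.52% of all. A CCAAT box (CCAAT, either strand, 37.4% of all promoters) was found in Hspa1a, Hspa1b, Hspa1l and Hspa2, and at 2 positions in Hsf2. The first 5 letters of the cAMP response element (TGACG, either strand, 20.8% of all) were found in Hspa1l, Hspa2 and Hspa4l, while the whole element, TGACGTCA, which contains them, was in none of the 6. TATAA occurred in Hspa2 alone of the 6, at position 11 relative to the start used for its window, and in 24.9% of all promoters. For Hspa2, Hspa4l and Hsf2, matches and absences hold only for windows inside the gene span. A match is a description of letters and not evidence of binding.

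Levels of the pair were low in all groups. Hspa1a was at 0.36, 0.59 and 0.3 FPKM in Con, 1.33, 0.34 and 0.54 in MNC, 0.17, 0.3 and 0.21 in M1, 0.23, 0.31 and 0.19 in M3, and 0.64, 0.2 and 0.64 in M5. Hspa1b was at 1.03, 1.06 and 0.87 FPKM in Con, 1, 0.69 and 0.35 in MNC, 0.67, 0.65 and 0.3 in M1, 0.27, 0.49 and 0.3 in M3, and 0.92, 0.53 and 1.82 in M5. The Hspa1b values of Con were above all those of M1 and M3, and the MNC and M5 values of both genes were spread widely. Since reads may be split between the copies, their sum was also fitted. The sum does not remove reads of Hspa1l, whose transcript held 7.95% of the windows of Hspa1a and 6.79% of those of Hspa1b. Hspa1l stood far higher, at 67.47 to 267.47 FPKM, and the part of its reads in the pair was not tested. The sum was 1.4 ± 0.24 FPKM in Con (SD, n = 3), 1.42 ± 0.794 in MNC, 0.767 ± 0.229 in M1, 0.597 ± 0.176 in M3 and 1.58 ± 0.865 in M5. The highest sums were those of M5 replicate 3, at 2.46 FPKM, and MNC replicate 1, at 2.33, the libraries with the highest Hspa8 and macrophage markers. The Con libraries had sums of 1.17 to 1.65 FPKM with macrophage markers of only 42.1 to 51.4. The largest difference of the sum was 0.64 in M5 against M3 (SE 0.253, limma, adjusted p = 0.341), and the sum was called in no comparison. With the filter on low values removed or set at a mean of 0.1 FPKM, neither gene was called in any comparison. No induction of the pair was detectable at these levels, which may include reads of Hspa1l.

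Hsp90aa1, the HSP90 that meiotic germ cells depend on, lies on chromosome 12 (chr12:110691036-110696395) and was the member that changed in M5. The M5 libraries were at 921.6, 870.4 and 802.58 FPKM and the MNC libraries at 681.22, 665.79 and 638.79. Con was at 682.58, 786.35 and 713.05 FPKM, M1 at 634.02, 688.4 and 614.05, and M3 at 663.91, 663.6 and 937.75. Every M5 library was above every library of Con, MNC and M1, and the only higher value was that of M3 replicate 3, the library that lay near M5 over the genes called between M5 and MNC. The level rose by 0.38 on the log2 scale in M5 against MNC (SE 0.0713, limma, adjusted p = 0.0366) and by 0.42 in M5 against M1 (SE 0.0762, limma, adjusted p = 0.0307). In M5 against M3 the difference was 0.21 (SE 0.15, limma, adjusted p = 0.493). The test of any difference among the 5 groups gave an adjusted p of 0.0589 (limma) with all libraries and 0.00373 without M3 replicate 3.

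The calls of Hsp90aa1 were each lost in 5 of 6 fits without 1 library and under some scalings, while the direction held. Against MNC, the adjusted p (limma) was 0.116 without M5 replicate 1, 0.136 without M5 replicate 2, 0.0743, 0.115 and 0.143 without MNC replicates 1, 2 and 3, and 0.0248 without M5 replicate 3, with differences between 0.34 and 0.44. Against M1, it was 0.138, 0.0643 and 0.138 without M1 replicates 1, 2 and 3, 0.0841 and 0.101 without M5 replicates 1 and 2, and 0.0183 without M5 replicate 3, with differences between 0.37 and 0.47. Calls over all genes moved likewise. Against MNC they went from 820 to 85 and 35 without M5 replicates 1 and 2. They were 362, 92 and 60 without MNC replicates 1, 2 and 3, and 946 without M5 replicate 3. Against M1 they went from 980 to 56, 208 and 85 without M1 replicates 1, 2 and 3. They were 256 and 135 without M5 replicates 1 and 2, and 1690 without M5 replicate 3. The losses were not particular to Hsp90aa1. In M5 against MNC the changes of all genes followed their GC content (Spearman rho = -0.453 across 13364 genes, which are not independent replicates), and the GC content of Hsp90aa1, 43.7%, was above that of 20.7% of genes. The trend was not particular to this comparison. Its rho was -0.376 in M3 against MNC, -0.242 in M1 against MNC, -0.362 in M5 against M1 and -0.234 in M5 against M3. It was 0.117 in MNC against Con and -0.104 in the injected groups against Con. After removal of the trend the difference of Hsp90aa1 was 0.27 against MNC (limma, adjusted p = 0.213) and 0.31 against M1 (limma, adjusted p = 0.149). Centring each library on its median gave 0.35 against MNC (limma, adjusted p = 0.175) and 0.35 against M1 (limma, adjusted p = 0.169). The cause of the trend with GC content was not tested. The 10 markers of spermatocytes, the cells in which Hsp90aa1 is known to be needed, summed to 1744 to 1933 FPKM in M5 and 1992 to 2246 in MNC, lower in M5. Ybx2, at a mean of 1266.39 FPKM against at most 194.26 for any other of the 10, dominated this sum. The 6 red blood cell markers summed to 147.6 to 490.8 FPKM in M5 and 21.8 to 35.4 in MNC. The part of these cells in the result was not tested. The partner form Hsp90ab1 stood at 119.8 ± 10.2 FPKM in MNC and 151.2 ± 29 in M5 (SD, n = 3), and the ratio of Hsp90aa1 to Hsp90ab1 was 5.54 ± 0.306 in MNC and 5.9 ± 1.43 in M5, overlapping.

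Hsf2, a heat shock factor of developing germ cells, lies on chromosome 10 (chr10:57483766-57513143). It was at 31.23, 27.87 and 27.05 FPKM in M5, at 25.09, 22.16 and 20.83 in MNC, at 22.47, 22.18 and 23.23 in M1, at 23.78, 19.98 and 27.28 in M3, and at 20.99, 22.12 and 18.06 in Con. The M5 libraries were above those of MNC, M1 and Con, and M3 replicate 3 reached the level of M5. The level rose by 0.33 in M5 against M1 (SE 0.0685, limma, adjusted p = 0.0428). Against MNC the difference was also 0.33 (SE 0.0929, limma, adjusted p = 0.091) and was not called, and against M3 it was 0.28 (SE 0.122, limma, adjusted p = 0.352). Over all injected groups Hsf2 rose by 0.24 against Con (SE 0.085, limma, adjusted p = 0.0425), and it was called in the test of any difference (limma, adjusted p = 0.0363). The latter call was lost in 13 of 24 alternatives, among them the replicate block (adjusted p = 0.0561, limma), the GC trend removed (0.0529) and 10 of the 15 fits without 1 library, those without Con replicate 1, 2 or 3, M1 replicate 1, 2 or 3, M3 replicate 1, M5 replicate 1 or 2, or MNC replicate 2, at up to 0.111. The GC content of Hsf2, 36.2%, was above that of only 0.8% of genes, and with the trend removed the difference in M5 against M1 was 0.12 (limma, adjusted p = 0.396), while that of the injected groups against Con was 0.28 (limma, adjusted p = 0.00966). Without M1 replicate 1, 2 or 3 or M5 replicate 1 or 2 the adjusted p (limma) of M5 against M1 was 0.0872 to 0.161. Without M5 replicate 3 it was 0.0296. Of all genes, 0.386% to 1.76% were called in the fits that lost the call, against 6.75% with all libraries. For the injected groups against Con, the call was lost without Con replicate 3, where the difference was 0.16 (limma, adjusted p = 0.215), without Con replicate 1 (adjusted p = 0.0926, limma) or Con replicate 2 (0.0544), and without M1 replicate 1, 2 or 3, M3 replicate 1, M5 replicate 1 or 2, or MNC replicate 1 or 2, at 0.0532 to 0.0618.

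Hsf1, the main factor of the heat shock response, lies on chromosome 15 (chr15:76477362-76501155) and was called in no comparison. It was at 18.5, 17.57 and 15.86 FPKM in Con, at 15.84, 15.95 and 16.08 in MNC, at 16.87, 15.32 and 15.1 in M1, at 15.23, 15.97 and 12.07 in M3, and at 11.74, 11.62 and 15.52 in M5. The M5 values were below those of MNC, M5 replicate 3 by little, and M3 replicate 3 was again close to the low M5 libraries. The difference in M5 against MNC was -0.29 (SE 0.118, limma, unadjusted p = 0.0441, adjusted p = 0.186). Without M5 replicate 3, the library with high somatic markers, it was -0.42 and called (limma, adjusted p = 0.0296), while without M5 replicate 1 or 2 it was -0.23 (limma, adjusted p = 0.363 and 0.41). Without M5 replicate 3, in M5 against M1 it was -0.40 (limma, adjusted p = 0.0273) in place of -0.27 (limma, adjusted p = 0.212).

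The ratio of the factors was highest in M5. Hsf2 over Hsf1 was 1.18 ± 0.0706 in Con (SD, n = 3), 1.42 ± 0.147 in MNC, 1.44 ± 0.103 in M1, 1.69 ± 0.517 in M3 and 2.27 ± 0.472 in M5. All M5 libraries, at 2.66, 2.4 and 1.74, were above those of Con, MNC and M1, of which the highest was 1.58, and M3 replicate 3 was at 2.26. GC content was 53.4% for Hsf1 and 36.2% for Hsf2, and its part in the ratio was not tested. Over the 15 libraries Hsf1 correlated with Hsf2 with a Pearson r of -0.75 and with Hspa4l of -0.88, and Hsf2 with Hsp90aa1 of 0.71, as descriptions over libraries that share groups and M3 replicate 3.

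To place the members among other chaperones, 126 genes in 8 lists were read from the same fits, and 121 of them were tested. In M5 against MNC 16 were called, 12 higher and 4 lower (13.2% of those tested, against 5.65% of all genes), with a median log2 difference of 0.10 against 0.03 for all genes. Of the chaperonins and prefoldins 4 of 17 rose and 0 fell: 3 were among the 11 genes of chaperonins, the folding chambers of the cytosol and mitochondria, and their cofactor Hspe1, and 1 was Pfdn4, among the 6 genes of prefoldin, which hands unfolded proteins to the cytosolic chamber. Of the HSP70 and HSP110 relatives 2 of 9 rose, of the HSP90 relatives and cochaperones 2 of 18, of the HSP40 family 3 of 44 with 1 lower, and of the endoplasmic reticulum lectin chaperones 1 of 8. No HSP70 exchange factor or partner of 12 was called. Of the small heat shock proteins 2 of 9 fell, and of the other heat shock factors and their regulators 1 of 4 fell. By the lowest p, Hsp90b1, the HSP90 of the endoplasmic reticulum, rose by 0.49 (limma, adjusted p = 0.0181), from 210.8 ± 11.2 FPKM in MNC to 295.8 ± 12.9 in M5 (SD, n = 3). Cct8, a chaperonin subunit, rose by 0.41 (limma, adjusted p = 0.0181), Hspb9, a testis small heat shock protein, fell by 0.43 (limma, adjusted p = 0.0218), and Dnajc4 fell by 0.33 (limma, adjusted p = 0.0289). The M5 libraries overlapped Con for Hsp90b1 (284.6 ± 9.19 FPKM in Con), Cct8 (95.5 ± 2.74, and 97.5 ± 0.917 in M5) and Hspb9 (553.4 ± 40.4, and 542 ± 22.4 in M5). For Dnajc4 M5 was below Con, at 42.3 ± 0.336 against 48.5 ± 1.95 (SD, n = 3). Hspa4, the closest relative of Hspa4l, rose by 0.28 (SE 0.0557, limma, adjusted p = 0.044), while Dnajb1, an inducible HSP40, was at 148.9 ± 6.75 FPKM in MNC and 141.1 ± 6.08 in M5, and Hsph1, an inducible HSP110, at 16.8 ± 1.09 and 18.7 ± 0.505 (SD, n = 3), neither of which was called. Hspa4, Pfdn4, Dnajb1 and Hsph1 were named after their values were seen. The count of 16 was 0 without M5 replicate 1 or 2 or MNC replicate 2 or 3, 7 without MNC replicate 1 and 18 without M5 replicate 3, and it was 0 with median centring or with the GC trend removed. In the fits without 1 library that gave 0, only 0.241% to 0.634% of all genes were called. The share was 1.25% with median centring and 0.793% with the GC trend removed.

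In M5 against M1 20 of the 121 were called, 15 higher and 5 lower (16.5%, against 6.75% of all genes), with a median of 0.11 against 0.04. Hsp90b1 rose by 0.47 (limma, adjusted p = 0.0101) and Dnaja1, an HSP40 of the cytosol, by 0.39 (limma, adjusted p = 0.0101), while Odf1, a small heat shock protein relative of the outer dense fibres of the sperm tail, fell by 0.59 (limma, adjusted p = 0.0185) and Dnajc4 by 0.33 (limma, adjusted p = 0.019). Dnaja1 was at 84.4 ± 1.01 FPKM in M5 and 74.4 ± 2.75 in Con, and Odf1 at 938 ± 91.2 and 695.4 ± 158.7 (SD, n = 3). The count of 20 was 0 without M1 replicate 1 or 3, 3 without M1 replicate 2, 5 and 3 without M5 replicates 1 and 2 and 28 without M5 replicate 3, and 0 with median centring or with the GC trend removed. Of all genes, 0.386% to 1.76% were called without 1 M1 library or without M5 replicate 1 or 2. The share was 1.74% with median centring and 0.883% with the GC trend removed. No chaperone of the lists was called in M1 against MNC, M3 against MNC or M5 against M3, in which few genes of any kind were.

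In MNC against Con 37 of the 121 were called, 11 higher and 26 lower (30.6%, against 20.4% of all genes), with a median of -0.12 against -0.10. The lists split: 6 of 17 chaperonins and prefoldins fell and 0 rose, with 5 of the 6 among the 11 chaperonin genes, 5 of 18 HSP90 relatives and cochaperones fell and 0 rose, and 4 of 8 endoplasmic reticulum lectin chaperones fell and 0 rose, whereas 4 of 9 small heat shock proteins rose and 0 fell. The HSP40 family went both ways, with 6 higher and 5 lower of 44. Hsp90b1 fell by 0.43 (limma, adjusted p = 0.0164) and Cct6a, a chaperonin subunit, by 0.51 (limma, adjusted p = 0.0171). After median centring the split of calls turned to 14 higher and 11 lower, and without the GC trend to 13 and 14. The count was 0, 2 and 22 without Con replicates 1, 2 and 3, 7 and 13 without MNC replicates 2 and 3, and 43 without MNC replicate 1. In the same order 0.0551%, 1.34%, 9.25%, 4.4%, 7.11% and 17.2% of all genes were called. Hspb7 rose by 0.71 (limma, adjusted p = 0.0168), from 5.86 ± 0.505 FPKM to 10.2 ± 0.967 (SD, n = 3), and Hspb9 by 0.40 (limma, adjusted p = 0.0212). Only MNC had all libraries above Con for Hspb7, which was at 4.67 ± 2.08 FPKM in M1, 4.03 ± 0.908 in M3 and 6.29 ± 1.11 in M5. The MNC libraries enter this comparison and M5 against MNC with opposite sign, so opposite calls in the pair of comparisons are not independent. The list of small heat shock proteins holds the spermatid genes Odf1 and Hspb9, both of them among its 4 that rose, and the elongating and round spermatid markers given above were also higher in all MNC than in all Con libraries. Their part in these differences was not tested.

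In the injected groups against Con 52 of the 121 were called, 19 higher and 33 lower (43%, against 34.2% of all genes), with a median of -0.10, that of all genes. The HSP40 family had 12 of 44 higher and 9 lower, the HSP90 relatives and cochaperones 1 higher and 7 lower of 18, and the chaperonins and prefoldins 0 higher and 5 lower of 17, with 4 of the 5 among the 11 chaperonin genes. After median centring 23 were higher and 7 lower, and without the GC trend 24 and 16. The count was 31 and 29 without Con replicates 1 and 2 (20.1% and 19% of all genes), and 67 without M5 replicate 3 (44.6%). Bag1, an HSP70 exchange factor, rose by 0.68 (limma, adjusted p = 0.000139), from 168.8 ± 28.1 FPKM in Con to group means of 260.6 to 273.4. Dnajc5b, an HSP40 of secretory vesicles found in testis, rose by 0.55 (limma, adjusted p = 0.000134). Hyou1, an HSP110 of the endoplasmic reticulum, fell by 0.40 (limma, adjusted p = 0.000273), and Grpel1, the exchange factor of the mitochondrial HSP70, fell by 0.29 (limma, adjusted p = 0.000745).

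**Figure D4:**
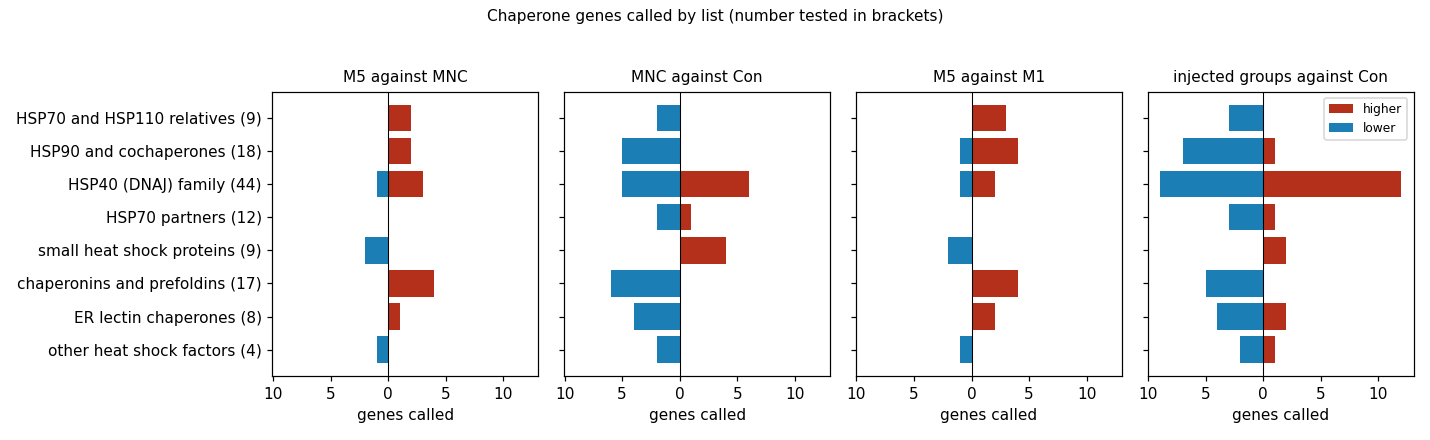
Number of chaperone genes called (horizontal axis, higher to the right, lower to the left) in 8 lists (rows, number tested in brackets) for 4 comparisons. In M5 against MNC 12 are higher and 4 lower, and in MNC against Con 11 are higher and 26 lower, with chaperonins and prefoldins on opposite sides in the 2 comparisons, which share the MNC libraries. After median centring the counts are 0 and 0 in the first, and 14 higher and 11 lower in the second.

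The genes whose levels over the 15 libraries were most like those of each member are given as a description by Pearson r of log2(FPKM + 1), among all tested genes with a name. Hspa2 was most like Ano10 (0.965), Tdrd9 (0.93), a helicase of the piRNA pathway, and Pdha2 (0.926), the testis form of a pyruvate dehydrogenase subunit. Hspa1l was most like Nelfe (0.88), Igf2bp3 (0.873) and Ly6g6c (0.87). Nelfe and Ly6g6c are also on chromosome 17 (chr17:34850391-34856372 and chr17:35067325-35070048), on either side of Hspa1l. Hspa4l was most like Fhl4 (0.966), Asnsd1 (0.96) and Sh3glb1 (0.951), and Hspa8 most like Appl2 (0.955), Flii (0.953) and Ldhd (0.949). Hsp90aa1 was most like Med7 (0.964), Hspa4 (0.963), itself a chaperone of the lists, and Mterf4 (0.961). Hsf1 was most like Kctd13 (0.964), Oaz1 (0.959) and Phf12 (0.954), and Hsf2 most like Lrif1 (0.97), Fam228b (0.943) and Arl13b (0.939). These values are the highest among all named genes tested. The libraries share groups, and the parts of depth and base composition in these values were not tested.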

How the data were processed

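RNA of 15 mouse testis libraries had been enriched with oligo(dT), sequenced on an Illumina HiSeq instrument and mapped with SOAPaligner 2.20, per the study's methods, and the submitters' processing notes name the build mm10. The authors deposited 1 table of FPKM values with 2 decimals for 23510 gene IDs; their methods speak of RPKM. Of the IDs, 21143 (89.9%) were named through the RefSeq table of GRCm38.p6. Groups and replicate numbers came from the sample titles, and the description of M5 replicate 2, which names the column of M5 replicate 1, was overruled by its title. Whether each library came from a separate mouse is not given in the sources used here, so that p-values measure only the spread between libraries.

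Counts were not used here, and the study's test (DEGseq) was replaced by limma 3.58.1 in R 4.3.3 (lmFit, eBayes with trend) on log2(FPKM + 1), a scale that understates changes of low genes. Genes averaging at least 1 FPKM entered, 14514 in all. Fits held the 2 groups compared, or all 5 groups for the test of any difference and for the injected groups against Con, with no covariate. Tests were two-sided, and Benjamini-Hochberg adjustment ran over all genes tested, with calls at an adjusted p under 0.05. The fits were tested on simulated data.

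Members, chaperone lists and marker lists were chosen with earlier results of these data known. All 9 members were named in every comparison. From the chaperone lists, the called genes with the lowest p were named, 2 in each direction and comparison, and for each tested member the 3 named genes of highest Pearson r. The median centring, quantile normalization, other filters (a mean of 0.1 or 5, or none), a pseudocount of 0.1, no trend, a replicate block, the study's threshold, a fit of all groups and leaving out each library in turn were the alternatives. Removal of the trend of log2 levels with GC content (known for 13364 genes) and the counts of called chaperones under each alternative were chosen after seeing the data. Promoters were RefSeq's, transcripts GENCODE M21. Tables were handled in Python 3.11.15 (pandas 2.3.3, numpy 2.4.6).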

Additional observations from a re-analysis of the deposited data

Results flagged for a closer look

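Pairs of knockdowns could be set against each other directly for each member, and 2 members differed between M5 and M1 by that test. Hsp90aa1 was higher in M5 than in M1 by 0.42 log2 units (SE 0.0762, limma, adjusted p = 0.0307), with group means of 864.9 ± 59.7 and 645.5 ± 38.5 FPKM (SD, n = 3) and every M5 library above every M1 library. Hsf2 was higher by 0.33 (SE 0.0685, limma, adjusted p = 0.0428), at 28.7 ± 2.21 and 22.6 ± 0.542 FPKM, again without overlap. Both calls were lost without any 1 of M1 replicates 1, 2 and 3 and M5 replicates 1 and 2, with adjusted p (limma) of 0.0643 to 0.161. In these fits 0.386% to 1.76% of all genes were called, against 6.75% with all libraries. With the GC trend removed the differences were 0.31 for Hsp90aa1 and 0.12 for Hsf2 (limma, adjusted p = 0.149 and 0.396), and with median centring 0.35 and 0.26 (limma, adjusted p = 0.169 and 0.222). No other member was called in M5 against M1, and none in M5 against M3.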

How the results depend on the processing

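The number of members called depended on the processing, and the direction of the called differences did not under the alternatives run. In M5 against MNC 1 member was called. The count was 0 with a filter at a mean of 0.1 FPKM (3.12% of all genes), no filter (1.97%) or median centring (1.25%). It was also 0 with no trend (1.48%), the study's threshold (0.0413%) or the GC trend removed (0.793%). In M5 against M1 2 were called, and 1 with a filter at 0.1 (3.8% of all genes), quantile normalization (8.27%) or a fit of all groups (9.51%). The count was 0 with no filter (2.56%), median centring (1.74%), no trend (2.65%), the study's threshold (0.0551%) or the GC trend removed (0.883%). In MNC against Con 1 was called, and 2 with a filter at 5 (32.7% of all genes), a fit of all groups (21.5%) or the GC trend removed (16.8%). The count was 0 with no filter (6.94%), median centring (12.9%) or the study's threshold (0.0138%). Among the 5 groups 2 were called, 1 with no filter (18.1% of all genes), 4 with quantile normalization (31.6%) and 0 with the GC trend removed (25%). With median centring (24.7%) Hsf1 was called beside Hsf2 in place of Hspa2 (limma, adjusted p = 0.0483 for Hsf1 and 0.223 for Hspa2). A filter at 5 (48.1%) added Hsp90aa1 (limma, adjusted p = 0.045). In the injected groups against Con 3 were called, and 4 with a filter at 5 (44.9% of all genes). The count was 2 with a filter at 0.1 (26.1%), median centring (22.5%) or quantile normalization (28.8%). It was 1 with no filter (21%) and 0 at the study's threshold (0.276%). Leaving out 1 library gave 0 to 2 members in M5 against MNC (0.241% to 6.52% of all genes) and 0 to 3 in M5 against M1 (0.386% to 11.6%). It gave 0 to 1 in MNC against Con (0.0551% to 17.2%) and 0 to 5 among the 5 groups (17.3% to 40.2%). For the injected groups against Con it gave 1 to 5 (19% to 44.6%), and for the other comparisons 0 (at most 1.3%). Each of these fits left 2 libraries in the group. The 16 log2 differences of chaperones named from the lists kept their sign under every alternative run. The counts of chaperones called fell to 0 with the replicate block in M5 against MNC, M5 against M1 and MNC against Con. Few genes of any kind were called there (0.0965%, 0.269% and 0.0689%). The causes of these shifts were not tested.

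Replicate numbers are shared by the groups in the titles, and samples of the same number did not deviate together, with correlations of deviations from -0.40 to 0.18 and no comparison in which all 3 were above 0.1. With the replicate block 0 members were called in M5 against MNC (0.0965% of all genes), M5 against M1 (0.269%) and MNC against Con (0.0689%). It gave 1 among the 5 groups (24.5%) and 2 in the injected groups against Con (30.4%).

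Small differences, none of them called, changed sign. With median centring the log2 difference was -0.001 for Hspa8 in M5 against MNC, 0.014 for Hsf1 and 0.032 for Hsf2 in M1 against MNC, -0.066 for Hspa2, -0.066 for Hspa1l and -0.023 for Hspa4l in M5 against M1, and 0.101 for Hsp90aa1 in the injected groups against Con. With quantile normalization it was 0.017 for Hsf2 in M1 against MNC, -0.056 for Hspa4l in MNC against Con, -0.001 for Hspa1l in M5 against M1, and 0.013 for Hspa2 and 0.044 for Hspa4l in M5 against M3. With the GC trend removed it was -0.042 for Hspa8 and -0.088 for Hspa4l in M5 against MNC, 0.016 for Hsf1 in M1 against MNC, -0.01 for Hsf2 in M3 against MNC, -0.12 for Hspa4l in M5 against M1 and 0.064 for Hsp90aa1 in the injected groups against Con. Leaving out 1 library gave -0.168 to 0.243 for Hspa8 in M5 against MNC, -0.065 to 0.01 for Hsf1, -0.057 to 0.071 for Hsf2 and -0.363 to 0.019 for Hspa8 in M1 against MNC, -0.051 to 0.164 for Hsf2 in M3 against MNC, -0.35 to 0.032 for Hspa8 in MNC against Con, -0.02 to 0.02 for Hspa2, -0.286 to 0.282 for Hspa1l and -0.002 to 0.137 for Hspa4l in M5 against M1, -0.071 to 0.029 for Hspa2, -0.073 to 0.065 for Hspa4l and -0.152 to 0.417 for Hspa1l in M5 against M3, -0.049 to 0.053 for Hsp90aa1 in the injected groups against Con, -0.118 to 0.011 for Chrm5 in M5 and -0.009 to 0.024 for Chrm1 in M1.

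Over all genes, median centring reduced the calls of M5 against MNC from 820 to 182 and of M5 against M1 from 980 to 252, and removal of the GC trend to 106 and 118. Of the calls in MNC against Con 39.3% were higher in MNC, 77.5% after centring and 68.5% with the GC trend removed, and in the injected groups against Con 34.6%, 70.4% and 61.6%. The depth of the libraries is unknown, which limits Hspa1a, Hspa1b and the receptors most, since their levels were low.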
